A study of Mus musculus with 3 samples.

Results

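Among the insulin-producing beta cells of these mouse islets, 934 cells carried the largest share of RNA from 3 genes: Igf1r, Pdyn and Ttyh1. They are called the selected cells here. A beta cell was any barcode with at least 500 detected genes, at most 20% mitochondrial molecules, at least 15% of its unique molecular identifiers (UMIs, 1 per captured RNA molecule) from Ins1 and Ins2, and under 1% each from Gcg, Sst and Ppy. Cells whose ferritin light chain reads were mostly those of the pseudogene Ftl1-ps1 were left out. Of 6468 such cells among 24590 barcodes, 6225 held at least 2000 UMIs, and the top 15% of these by the summed share of the 3 genes, all libraries pooled, were selected. They were compared with the lowest 50% by the same share within each library, 3113 cells called the low cells.

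The islets came from male C57Bl6/J mice, retired breeders 7 to 8 months old. Each group was 1 library. Control mice carried pumps without drug for 2 weeks. A second group had pumps with S961, a peptide that blocks the insulin receptor, at a labelled 20 nM per week for 2 weeks. The recovered group is labelled with the same S961 dose and the same 2 weeks of pumps, and then had its pumps taken out. All islets spent a night in culture before dissociation and 10x 3' capture. The number of mice per library and the length of recovery are not in the labels. With 1 library per group and cells chosen on their own RNA, no test across mice was possible. Every difference below is a description, every interval is a 95% interval for counting error only, and cells were not treated as replicates.

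The library totals ran from 38265969 to 47651767 UMIs, and the libraries shared 11 to 29 barcode sequences per pair, of which 1 pair was among the selected cells. All 10 beta-cell markers were detected in the selected cells of each library, and they summed to 390435 (recovered) to 414092 (S961) counts per 1000000 UMIs, written CPM. Red blood cell markers were at 0 in the selected cells. Endothelial, stellate and lymphocyte markers each summed to at most 6.47 CPM. Macrophage markers summed to 33.8 to 48.1 CPM, with 3 of 8 detected in each library. Cd68 and C1qa were detected in each, and Lyz2, C1qc, Csf1r and Adgre1 were at 0. Alpha cell markers summed to 442, 938 and 523 CPM in the selected cells of control, S961 and recovered, against 493, 1007 and 590 in the low cells. Acinar markers summed to 61.1 to 268 CPM in the selected cells and to 87.7 to 3103 CPM in the low cells, the highest value being that of S961.

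Igf1r encodes the receptor for insulin-like growth factors, a close relative of the insulin receptor, and has been described as an RNA that increases in mouse beta cells with age. Pdyn encodes prodynorphin, the precursor of the dynorphin opioid peptides, which prohormone convertases release in secretory granules and which act on the kappa opioid receptor. Ttyh1 encodes a membrane protein of the tweety family, mostly studied in brain. In beta cells, proinsulin is folded in the endoplasmic reticulum, and glucose reaches glycolysis through the transporter Slc2a2 and glucokinase.

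Pdyn lies on chromosome 2 (129686565 to 129699844, minus strand, GRCm38), and Ttyh1 and Igf1r lie on the plus strand of chromosome 7 (4119408 to 4136708, and 67952827 to 68233668). The 250 bases before the RefSeq start of each gene (GRCm38.p6) are shown because these genes define the cells. They are Pdyn at chr2:129699939-129700188, Ttyh1 at chr7:4119280-4119529 and Igf1r at chr7:67952007-67952256, each written 5′ to 3′ on the strand of its gene. The gene spans are those of GENCODE M21, whose starts differ from the RefSeq starts. The Pdyn and Igf1r windows end before the span of their gene, and the Ttyh1 window reaches into it. The 50 bases after the window were found unbroken in a GENCODE transcript of the gene for Ttyh1, but not for Pdyn or Igf1r.
Pdyn: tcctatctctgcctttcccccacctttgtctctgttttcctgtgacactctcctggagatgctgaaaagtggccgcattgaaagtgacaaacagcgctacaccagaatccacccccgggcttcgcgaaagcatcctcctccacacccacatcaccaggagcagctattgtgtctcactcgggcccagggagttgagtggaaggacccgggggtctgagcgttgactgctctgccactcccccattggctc
Ttyh1: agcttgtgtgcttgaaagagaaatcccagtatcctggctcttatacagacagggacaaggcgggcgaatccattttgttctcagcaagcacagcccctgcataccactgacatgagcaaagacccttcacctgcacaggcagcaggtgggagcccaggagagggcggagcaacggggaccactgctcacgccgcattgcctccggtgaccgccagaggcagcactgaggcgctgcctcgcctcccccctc
Igf1r: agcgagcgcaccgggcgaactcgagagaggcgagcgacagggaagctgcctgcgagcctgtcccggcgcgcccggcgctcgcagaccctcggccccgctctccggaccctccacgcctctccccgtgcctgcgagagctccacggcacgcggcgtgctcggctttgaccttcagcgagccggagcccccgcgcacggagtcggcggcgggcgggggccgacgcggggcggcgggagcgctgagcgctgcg
The windows differ in base composition, with 57.2% G and C for Pdyn, 60.4% for Ttyh1 and 77.6% for Igf1r. Each was searched on both strands for ACGTG (the core of the hypoxia response element with A as its first base) and CACGTG (an E-box). The search also took TGATGNAA (the core of the element read by ATF4 and C/EBP) and TGACGTCA (the cyclic AMP response element). None of the 4 was found in any of the 3 windows. GCGTG, the hypoxia core with G as its first base, was not among them, and it occurs in the printed Igf1r and Ttyh1 windows. Among 27025 mouse promoter windows of this length, 16.5% held ACGTG, 6.02% CACGTG, 3.53% TGATGNAA and 1.61% TGACGTCA.

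The selected cells made up 20.0% of beta cells in control (549 of 2747, interval 18.5 to 21.5), 8.30% in S961 (122 of 1470, 6.94 to 9.83) and 13.1% in recovered (263 of 2008, 11.7 to 14.7). From high to low the order was control, recovered, S961, and no 2 of these intervals overlapped. When each cell was first thinned to 2000 UMIs, the shares were 19.3%, 8.78% and 13.6%. S961 held the lowest share both with and without thinning, and its cells were the most deeply read. The threshold lay at 1183 CPM of the 3 genes together. The 10 cells just inside it held 1183 to 1189 CPM and the 10 just outside 1177 to 1182 CPM, and 161 selected and 194 other cells lay within 10% of it, so the selected cells are the upper end of a range, with no gap at the threshold.

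Selected cells were deeper than the low cells in each library. Their median was 9196 against 6926 UMIs in control, 20623 against 11182 in S961 and 12097 against 9600 in recovered. The median share of mitochondrial UMIs was 6.13% against 7.34%, 4.95% against 4.27% and 6.35% against 7.56%, and that of insulin UMIs was 30.1% against 32.8%, 31.9% against 35.7% and 29.6% against 33.1%. The part of depth in the differences below was examined by weighting the low cells to the depth and mitochondrial share of the selected cells. That brought their mean UMIs to 9291, 19963 and 12753, against 9535, 20258 and 12838.

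The values of Igf1r, Pdyn and Ttyh1 chose the cells and are given as a description. Pdyn was at 972 CPM in the selected control cells, 793 in S961 and 794 in recovered, against 57.3, 26.7 and 33.5 CPM in the low cells. Igf1r was at 724, 671 and 751 CPM, against 140, 76.3 and 119. Ttyh1 was at 180, 175 and 199 CPM, against 23.2, 23.5 and 20.3. In the low cells, Pdyn and Igf1r were higher in control than in S961, while the counting intervals of Ttyh1 overlapped. The low cells were cut within each library by the summed share of these genes. That cut lay at 505 CPM per cell in control, 288 in S961 and 382 in recovered. The cut helped set the levels of these genes in the low cells, so they are not a separate comparison between libraries.

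**Figure D1:**
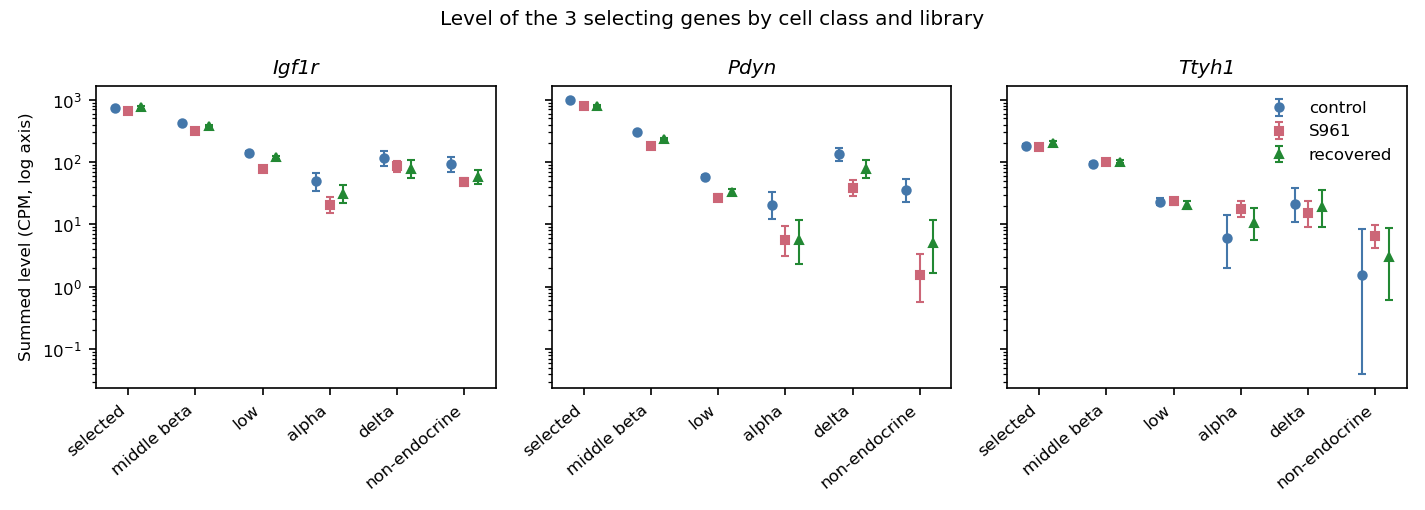
Level of the 3 selecting genes (CPM, log axis) by cell class in each library; points are summed UMIs over the cells of a class and bars are exact Poisson 95% intervals. The selected cells were chosen on these genes. Pdyn is at 5.67 to 20.7 CPM in alpha cells and at 38.9 to 133 CPM in delta cells.

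Outside beta cells the 3 genes were below their levels in the selected cells, but not always below those in the low cells. Alpha cells, taken as barcodes with at least 5% of UMIs from Gcg, held Igf1r at 48.8, 20.7 and 30.8 CPM in control, S961 and recovered, and Pdyn at 20.7, 5.68 and 5.67 CPM. Delta cells, with at least 5% from Sst, held Igf1r at 115, 86.2 and 78.6 CPM and Pdyn at 133, 38.9 and 78.6 CPM. Pdyn in delta cells was thus above the low cells of each library (57.3, 26.7 and 33.5 CPM), which were cut on these genes. Igf1r was above them in S961 only (76.3 CPM in the low cells). Ttyh1 in delta cells was at 21.4, 15.2 and 19.2 CPM, against 23.2, 23.5 and 20.3 in the low cells. Non-endocrine cells held Igf1r at 92.3, 47.5 and 58.2 CPM and Pdyn at 35.4, 1.56 and 5.01 CPM. With every cell thinned to 2000 UMIs, a Pdyn molecule was seen in 74.5% of selected control cells, 10.3% of the low cells, 3.21% of alpha cells, 7.19% of non-endocrine cells and 20.2% of delta cells. Before thinning, the median depth of these control classes was 9196, 6926, 4378, 3491 and 4244 UMIs. Free RNA in droplets can give a molecule to any cell, and its part in these shares was not tested.

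Most selected cells carried more than 1 of the 3 RNAs. Igf1r was detected in 911 of the 934, Pdyn in 858 and Ttyh1 in 642. All 3 were seen in 578 cells, and 35 cells held only 1 of them. Pdyn gave the largest count in 497 cells, Igf1r in 381 and Ttyh1 in 17, with ties in 39. Of all 19754 UMIs that placed the cells in the group, 49.3% were Pdyn, 40.4% Igf1r and 10.4% Ttyh1, so Ttyh1 had the smallest weight in the choice. The median selected cell held 16 UMIs of the 3 genes in control, 33 in S961 and 21 in recovered.

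Whether the genes go together was measured by leaving each out of the score and choosing the cells again by the other pair. Ttyh1 was then at 138 CPM in the selected cells and 43.0 in the low cells in control, 134 and 48.4 in S961, and 155 and 42.8 in recovered. The log2 ratios were 1.68 (1.51 to 1.86), 1.47 (1.26 to 1.69) and 1.86 (1.67 to 2.04). Pdyn was at 563 against 216 CPM, 336 against 121 and 387 against 141, with log2 ratios of 1.38, 1.48 and 1.46. Igf1r was at 485 against 275 CPM, 393 against 191 and 441 against 223, with log2 ratios of 0.82, 1.04 and 0.98. Each gene was thus higher in cells chosen by the other 2 in each of the 3 libraries, with Igf1r having the smallest ratio of the 3 genes.

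**Figure D2:**
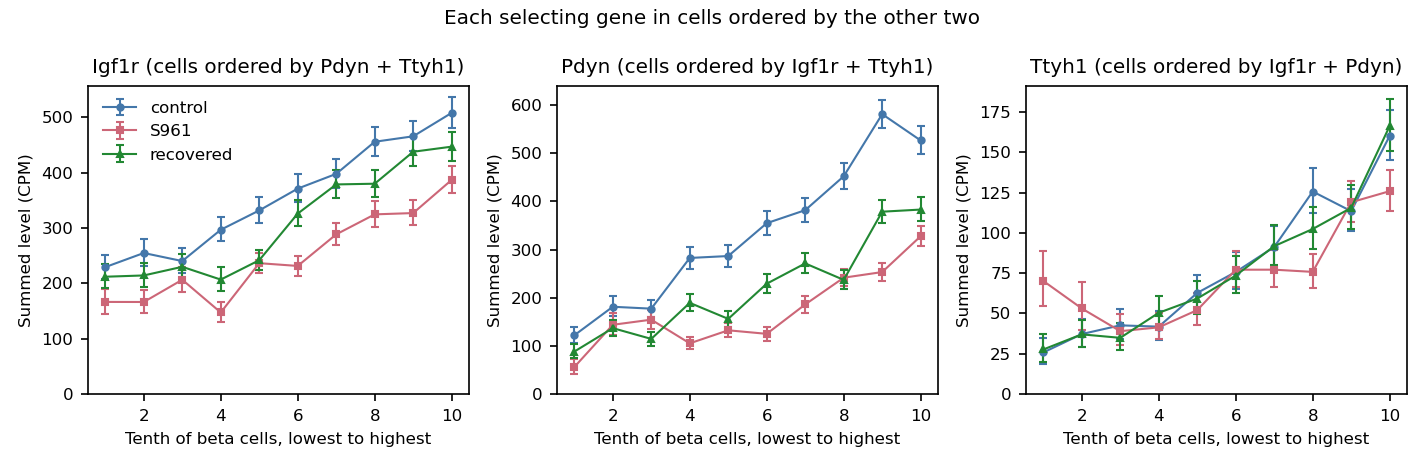
Summed level (CPM) of Igf1r, Pdyn and Ttyh1 in 10 equal bins of the beta cells of each library, ordered by the other 2 genes; bars are exact Poisson 95% intervals. From the lowest to the highest bin in control, Igf1r goes from 229 to 508 CPM, Pdyn from 122 to 526 CPM and Ttyh1 from 25.8 to 160 CPM. In S961, Ttyh1 is at 70.2 CPM in the lowest bin, 39.0 in the third and 126 in the highest. Bins differ in depth: the median is 3833 UMIs in that lowest bin and 21334 in that highest bin.

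To measure the cells on molecules that had not chosen them, the UMIs of each cell were split at random into 2 equal parts. Cells chosen on 1 part held Pdyn in the other part at 875 CPM in control, 714 in S961 and 729 in recovered, against 104, 48.5 and 54.1 CPM for the low cells of that choice. Ttyh1 was at 140, 155 and 177 CPM, against 33.8, 36.2 and 29.1, and Igf1r at 610, 603 and 637 CPM, against 205, 104 and 174. The log2 ratios were 3.07, 3.88 and 3.75 for Pdyn, 2.05, 2.10 and 2.61 for Ttyh1 and 1.57, 2.53 and 1.88 for Igf1r. Each was smaller than on the UMIs that chose the cells, where they were 4.08, 4.89 and 4.56 for Pdyn, 2.95, 2.89 and 3.30 for Ttyh1 and 2.36, 3.14 and 2.66 for Igf1r. Of the cells selected on all UMIs, 78.1% were also selected on 1 part. Of those selected on the first part, 57.2% were selected again on the second.

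Selected cells also differed among themselves. The 497 led by Pdyn and the 381 led by Igf1r had like depth in each library (medians of 9288 and 9170 UMIs in control, 21033 and 20581 in S961, 12298 and 11912 in recovered). This comparison was added after the data had been seen. Of 2677 genes with at least 100 UMIs in each library, 7 (0.261%) were higher in the Pdyn-led cells by a log2 ratio of at least 0.32 in all 3 libraries, and 56 (2.09%) were lower by as much. The cell cycle inhibitor Cdkn1a (p21) was lower where Pdyn led, at 65.4 against 114 CPM in control, 154 against 246 in S961 and 63.5 against 99.9 in recovered. The metallothionein Mt1 was at 978 against 1825 CPM, 590 against 1177 and 609 against 1052, and Mt2 at 261 against 467, 99.8 against 240 and 157 against 258. Vdac1, the mitochondrial outer membrane channel, and Mcub, an inhibitory subunit of the mitochondrial calcium uniporter, were lower too. Ucn3, a peptide of mature beta cells, was higher where Pdyn led, at 101 against 67.7 CPM, 108 against 55.2 and 131 against 102, as were Gc, Cplx2, Edem2, Mxd4, C1qa and Spp1, the last 2 being a macrophage and a ductal marker. The counting intervals included 0 for Cplx2 in control and S961, for Edem2 in S961 and for Mxd4 in control. None of the 12 measured heat shock and immediate early genes and none of the 23 granule genes passed in either direction. With 0.261% and 2.09% of all genes passing, short lists can hold none. Of the lists described below, glycolysis had 2 of 17 genes lower where Pdyn led (median log2 ratio -0.34). The ATF4 response had 2 of 19 lower (-0.30) and the unfolded protein response 3 of 29 (-0.05). The antioxidant and metal list had 3 of 20 lower (-0.12). None of these lists had a higher gene. The identity list had 1 of 21 higher and 1 lower, and the neuropeptide and immature lists 1 higher each.

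Across all genes, 7738 had at least 100 UMIs in the selected cells and the low cells of each library. Of these, 471 (6.09%) were higher in the selected cells by a log2 ratio of at least 0.32 in all 3 libraries and 230 (2.97%) were lower by as much. The median log2 ratio over all measured genes lay at 0.02 for control, 0.10 for S961 and 0.05 for recovered. With insulin and mitochondrial UMIs taken out of the CPM total the counts were 280 higher and 399 lower, so the split between higher and lower genes changed with that total. When the cells were chosen on 1 part of the UMIs and measured on the other, 307 genes were higher, of which 251 were among the 471, and 126 were lower, of which 96 were among the 230. After weighting to equal depth and mitochondrial share the counts were 403 and 163. The 15 highest and 15 lowest genes, ranked by their smallest log2 ratio over the 3 libraries, are described next.

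Ldha, lactate dehydrogenase A, which mature beta cells hold at very low levels, came first among the higher genes. It was at 67.8 CPM in the selected control cells, 88.6 in S961 and 52.7 in recovered, against 18.9, 18.0 and 9.40 CPM in the low cells. The log2 ratios were 1.84 (1.58 to 2.10), 2.30 (2.00 to 2.60) and 2.49 (2.12 to 2.86). The selected cells of all 3 libraries were above the low cells of all 3.

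Of the other higher genes, Vgf, the precursor of granule peptides, was at 140, 149 and 139 CPM against 51.8, 50.5 and 41.9 CPM, with log2 ratios of 1.44, 1.56 and 1.73. Pappa2, a protease that cleaves IGF binding proteins, was at 76.6, 123 and 113 CPM against 26.4, 55.7 and 34.4. Serpina7, thyroxine-binding globulin, had log2 ratios of 1.13, 1.18 and 1.11. Pde1c, a calmodulin-dependent phosphodiesterase, had log2 ratios of 1.13, 1.40 and 1.23, and C2cd4a, a beta-cell gene near a diabetes risk locus in people, of 1.06, 1.65 and 1.62.

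The polyamine enzyme Odc1, ornithine decarboxylase, was at 176, 271 and 195 CPM against 75.6, 76.4 and 73.5 CPM, with log2 ratios of 1.22, 1.83 and 1.41. Its level in the low cells was the same within 3 CPM in the 3 libraries, and in the selected cells it was highest in S961. Fh1, fumarate hydratase of the citric acid cycle, was at 213, 194 and 245 CPM against 102, 75.7 and 92.9. The ubiquitin ligase Ubr4 was at 292, 346 and 316 CPM against 130, 113 and 119. Fam46a, a non-canonical poly(A) polymerase, was the most abundant of the 15, at 432, 386 and 384 CPM against 171, 160 and 129. The others were Diras2, a Ras-like GTPase (2.05 ± 0.33, mean log2 ratio ± SD over the 3 libraries), Fam129a (1.53 ± 0.17), Tenm4, a teneurin adhesion protein (1.34 ± 0.06), Wipi1, an autophagy protein (1.23 ± 0.27), and Trib3, a pseudokinase induced by ATF4 (1.18 ± 0.12). That SD is over libraries of different treatment.

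**Figure D3:**
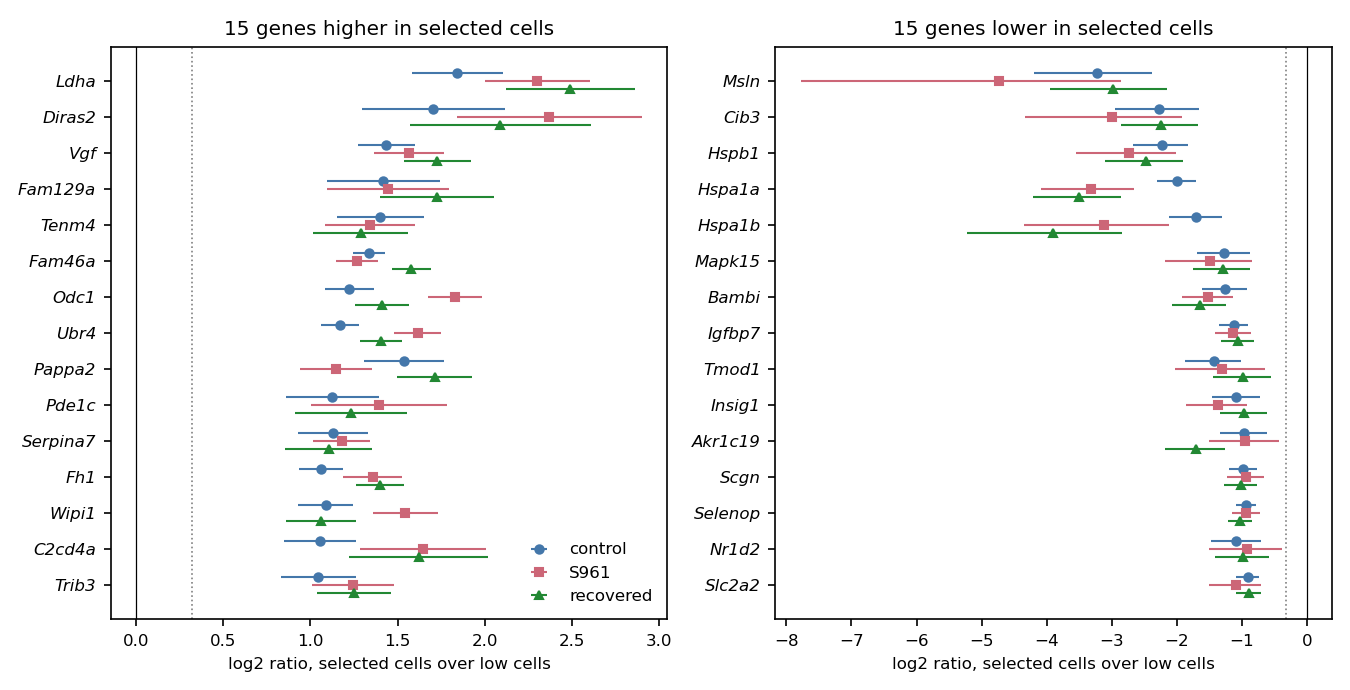
Log2 ratio of the selected cells over the low cells for the 15 higher and 15 lower named genes in each library, with exact 95% counting intervals; the dotted line is the threshold of 0.32. Every interval of the 15 higher genes lies to the right of the line, and Msln has the widest intervals of the lower genes.

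Among the lower genes, Msln, mesothelin, was at 2.29 CPM in the selected control cells, 0.81 in S961 and 3.55 in recovered, against 21.4, 21.4 and 28.0 CPM. Its log2 ratios were -3.22, -4.73 and -2.98, resting on 12, 2 and 12 UMIs in the selected cells. Cib3, a calcium-binding protein, was at 4.58, 2.83 and 8.00 CPM against 22.1, 22.5 and 37.7. Both genes were low in the selected cells of every library.

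The inducible heat shock genes Hspa1a, Hspa1b and Hspb1 were lower in the selected cells. Hspa1a was at 20.4 CPM in control, 7.28 in S961 and 5.92 in recovered, against 81.6, 72.9 and 66.8 CPM. A minority of cells carried much of this RNA: 4.51%, 2.72% and 3.09% of the low cells held at least 1000 CPM of Hspa1a and Hspa1b, against 0.729%, 0% and 0% of the selected cells (0 of 122 and 0 of 263). Without such cells the mean log2 ratio of Hspa1a was -1.25 in place of -2.94, and that of Hspa1b -1.41 in place of -2.90. The direction stayed, with a smaller difference.

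Bambi, a decoy receptor of the TGF-beta family, has been described together with Igf1r as an RNA of older beta cells. Here it was at 16.6 CPM in the selected control cells, 25.1 in S961 and 16.3 in recovered, against 39.7, 71.7 and 51.0 CPM. The log2 ratios were -1.26 (-1.61 to -0.92), -1.51 (-1.91 to -1.14) and -1.65 (-2.07 to -1.24). Cells high in Igf1r, Pdyn and Ttyh1 were thus low in Bambi in each library.

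Slc2a2, the glucose transporter GLUT2, was lower at 65.7, 24.3 and 76.7 CPM against 123, 51.7 and 142, with log2 ratios of -0.90, -1.09 and -0.89. Mlxipl, which encodes the glucose-responsive transcription factor ChREBP, was at 67.6, 92.3 and 77.3 CPM against 145, 157 and 186 (-1.10, -0.77 and -1.26). Txnip, a target of ChREBP, was at 23.3, 47.7 and 28.4 CPM against 41.7, 82.7 and 62.2 (-0.84, -0.79 and -1.13). Insig1, which holds back sterol synthesis, had log2 ratios of -1.08, -1.37 and -0.96. Of the remaining lower genes, Igfbp7 (-1.11 ± 0.04) binds insulin-like growth factors, Selenop (-0.96 ± 0.05) carries selenium, Scgn (-0.98 ± 0.04) is the calcium sensor secretagogin, Nr1d2 (-0.99 ± 0.08) is a circadian repressor, and Mapk15 (-1.35 ± 0.11), Tmod1 (-1.24 ± 0.23) and Akr1c19 (-1.21 ± 0.44) complete the 15.

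**Figure D4:**
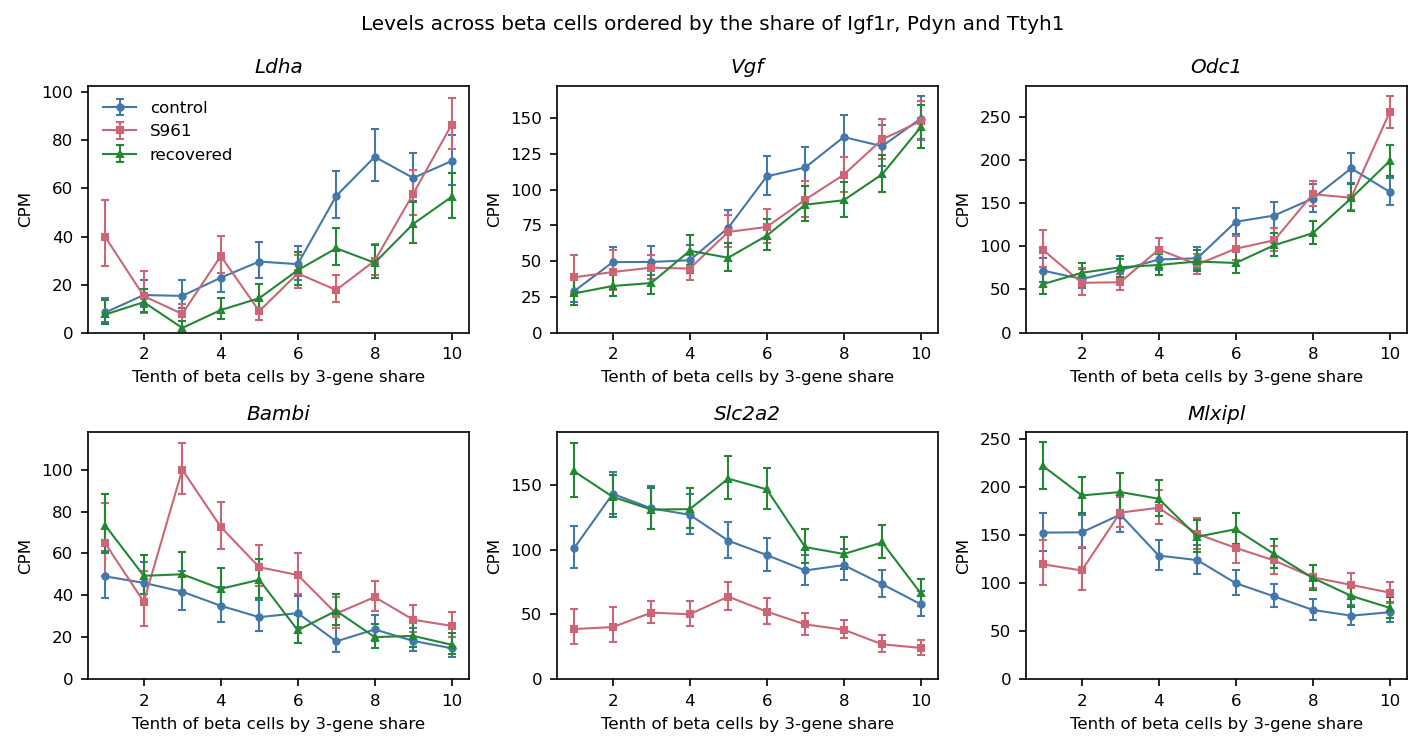
Level (CPM) of 3 higher and 3 lower genes in 10 equal bins of the beta cells of each library, ordered by the share of the 3 selecting genes; bars are exact Poisson 95% intervals. Vgf goes from 29.0 to 150 CPM in control, 38.6 to 148 in S961 and 27.4 to 144 in recovered, and Ldha in the lowest bin of S961 stands at 39.8 CPM, above the bins next to it.

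These differences ran along the whole order of beta cells for some genes and not for others. From the lowest to the highest of 10 bins, Vgf went from 29.0 to 150 CPM in control, with 73.2 CPM in the fifth bin. Mlxipl went from 152 to 69.5 CPM in control and from 221 to 74.1 in recovered, while in S961 it stood at 119 CPM in the lowest bin, 151 in the fifth and 89.9 in the highest. Slc2a2 was at 101 and 107 CPM in the lowest and the fifth bin of control, and was at 57.8 CPM in the highest.

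The glycolysis list held the largest share of higher genes. Of 22 measured members, 15 were higher in all 3 libraries, none was lower and 7 passed in neither direction, with a median log2 ratio of 0.72, against 6.09% higher among all measured genes. Pgk1, phosphoglycerate kinase, was at 820, 793 and 751 CPM against 404, 332 and 314. Pfkp, the platelet form of phosphofructokinase, was at 162, 185 and 145 CPM against 91.2, 67.6 and 67.1, and Gapdh at 1685, 1605 and 1552 against 1079, 782 and 866. Eno1, Tpi1, Aldoa, Pgam1, Gpi1, Pkm and Pdk1, the kinase that holds back pyruvate dehydrogenase, were among the 15. The muscle phosphofructokinase Pfkm (0.01, -0.37 and -0.23) and the hypoxia-inducible genes Vegfa, Ndrg1 and Ddit4 passed in neither direction. The count was 10 when Igf1r was left out of the score, 12 against all other beta cells and 15 after weighting to equal depth.

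Ldha (chromosome 7, 46841475 to 46855627, plus strand) is the glycolytic gene that came first, so its window of 250 bases is shown too (chr7:46845554-46845803, plus strand, GRCm38.p6, before a RefSeq start that lies inside the GENCODE span), with the searched motifs in capitals.
Ldha: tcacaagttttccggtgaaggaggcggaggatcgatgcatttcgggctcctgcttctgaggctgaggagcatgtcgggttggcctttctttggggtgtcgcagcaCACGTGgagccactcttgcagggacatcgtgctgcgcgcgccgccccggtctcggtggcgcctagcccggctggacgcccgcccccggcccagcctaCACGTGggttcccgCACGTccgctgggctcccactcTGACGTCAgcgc
It holds CACGTG at 2 positions, TGACGTCA at 1 and ACGTG in 5 matches over both strands, each CACGTG giving 2 of these. Among the genes with a window in the table, 29.3% of 376 higher genes held ACGTG, 19.5% of 174 lower genes and 23.6% of all 6161 measured genes. CACGTG was held by 11.7%, 8.05% and 9.06%. A match gives letters only and shows no binding. The 50 bases after the Ldha window were not found unbroken in a GENCODE transcript of Ldha.

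Genes of the amino acid response run by the transcription factor ATF4 came next. Of 22 measured members, 12 were higher, none lower and 10 in neither direction, with a median log2 ratio of 0.50, against 6.09% higher among all measured genes. The serine synthesis enzyme Psat1 was at 29.8, 36.0 and 33.8 CPM against 16.4, 16.1 and 15.6, and the tryptophanyl-tRNA synthetase Wars at 96.9, 105 and 119 against 51.9, 48.5 and 56.4. Phgdh, Shmt2, Chac1, Asns, Nupr1 and 4 other tRNA synthetase genes (Eprs, Iars, Gars, Nars) were among the 12. Ddit4 (-0.37, -0.11 and -0.47) was the lowest member. Without Igf1r in the score 4 members were higher.

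Of 32 measured genes of the unfolded protein response, which adjusts folding capacity in the endoplasmic reticulum, 15 were higher, none lower and 17 in neither direction (median log2 ratio 0.44), against 6.09% higher among all measured genes. Hspa5, the chaperone BiP, was at 1521, 1047 and 1276 CPM against 1064, 799 and 830, with log2 ratios of 0.52, 0.39 and 0.62. Trib3, Sdf2l1, P4hb, Pdia6, Hsp90b1, Calr and Atf4 itself were among the 15. Ddit3 (CHOP), the gene tied to cell death in this response, passed in neither direction (-0.30, -0.11 and -0.16), and Derl3 was at -0.22, -0.89 and -0.82. The higher count was 9 after weighting to equal depth, 6 with thinned scores and 4 against all other beta cells.

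**Figure D5:**
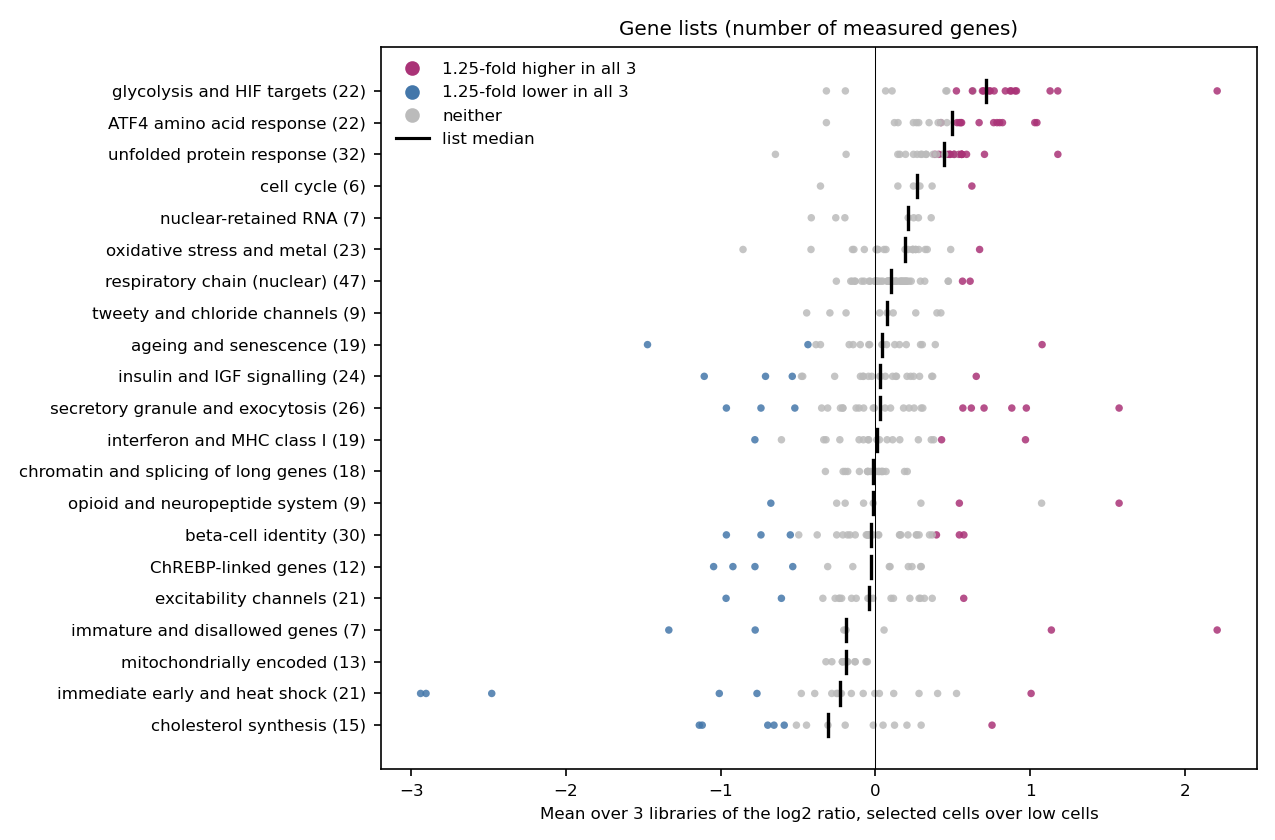
Each point is 1 measured gene of a list, placed at its mean log2 ratio over the 3 libraries, selected cells over low cells; colours mark genes past the threshold in all 3 libraries and bars mark the list median. Glycolysis has the highest median (0.72) and cholesterol synthesis the lowest (-0.31).

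Cholesterol synthesis leaned the other way. Of 15 measured genes, 5 were lower, Insig1, Idi1, Fdps and Srebf2 among them, 1 was higher and 9 were in neither direction, with a median of -0.31, against 2.97% lower among all measured genes. The 1 higher gene, Sqle, squalene epoxidase, was at 150, 185 and 165 CPM against 98.9, 93.1 and 104. Idi1, isopentenyl diphosphate isomerase, had log2 ratios of -0.80, -1.23 and -1.33. Among 12 genes linked to ChREBP, 4 were lower (Mlxipl, Txnip, Khk and Scd2) and 8 in neither direction, against 2.97% lower among all measured genes. The list medians were -0.23 in control, 0.31 in S961 and -0.19 in recovered. Of 21 immediate early and heat shock genes, 5 were lower (Hspa1a, Hspa1b, Hspb1, Jun and Dnajb1) and 1 was higher (Ier3). The other 15, Fos and Egr1 among them, were in neither direction, against 2.97% lower and 6.09% higher among all measured genes.

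Of 30 measured beta-cell identity genes, 3 were higher, 3 lower and 24 in neither direction, against 6.09% higher and 2.97% lower among all measured genes. The median log2 ratio was -0.03. Ins1, Ins2, Iapp, Pdx1, Nkx6-1, Mafa and Ucn3 were among the 24. Mafa, an activator of insulin transcription, was at 375, 126 and 379 CPM against 336, 104 and 367. Slc2a2, the granule zinc transporter Slc30a8 (183, 140 and 225 CPM against 330, 189 and 432) and the islet factor Rfx6 were lower. G6pc2, the islet glucose-6-phosphatase, the proinsulin convertase Pcsk1 and the fatty acid receptor Ffar1 were higher. Aldh1a3, an enzyme of immature and failing beta cells, had too few UMIs in recovered to count as measured. It was at 24.6, 49.0 and 7.40 CPM against 10.2, 22.7 and 6.33. On the list of 7 measured immature and disallowed genes, Ldha and Serpina7 were higher, Sox4 and Rbp4 were lower, and 3 were in neither direction. The shares of all measured genes beside this count are again 6.09% and 2.97%.

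Around Igf1r, 24 genes of insulin and IGF signalling were measured, and 1 was higher, 3 lower and 20 in neither direction, against 6.09% and 2.97% of all measured genes. Irs2, the main insulin receptor substrate of beta cells, was higher at 44.1, 41.7 and 38.5 CPM against 24.8, 27.3 and 26.9. Igfbp7, the insulin receptor-related receptor Insrr and the regulatory subunit Pik3r3 were lower. The insulin receptor Insr was at 16.6, 24.7 and 19.5 CPM against 17.8, 17.1 and 19.8, and passed in neither direction. Irs1 was under 6 CPM in every group and was not counted as measured.

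Around Pdyn, 9 genes of the opioid and neuropeptide system were measured. Of these, 2 were higher, 1 lower and 6 in neither direction, against 6.09% and 2.97% of all measured genes. Vgf and Pcsk1, a convertase of prohormones, were higher and Pcsk1n, its inhibitor, was lower, at 918, 1096 and 950 CPM against 1360, 1841 and 1555. The appetite peptide precursor Cartpt was at 38.8 and 37.3 CPM against 12.9 and 12.8 in control and recovered, and at 25.9 against 24.4 in S961. Oprk1, the kappa opioid receptor, had no UMI in the selected cells or in the low cells. Around Ttyh1, none of 9 measured chloride channel and transport genes passed in either direction, against 6.09% and 2.97% of all measured genes, and Ttyh2 was the highest at 0.54, 0.55 and 0.18.

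Of 26 genes on the granule and exocytosis list, 6 were higher, 3 lower and 17 in neither direction, against 6.09% and 2.97% of all measured genes. The list includes Slc2a2, a glucose transporter and not a granule gene, which was lower. The lists share genes, so their counts are not separate results. Slc2a2 and Slc30a8, the 2 lowest here, are also on the identity list, and Vgf, the highest, is on the neuropeptide list. The synaptic priming factor Unc13a was at 48.1, 51.8 and 52.7 CPM against 26.3, 25.2 and 26.0, and Syt4 at 432, 383 and 457 against 248, 207 and 235. Scg2, secretogranin II, passed in neither direction (0.22, 0.06 and 0.01). Among 21 channel genes, 1 was higher, 2 lower and 18 in neither direction, against the same shares of all measured genes. The potassium channel gene Kcnma1 was higher, and Kcnk16 and the calcium release channel gene Itpr1 were lower.

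Of 19 ageing and senescence genes, 1 was higher, 2 lower and 16 in neither direction, against 6.09% and 2.97% of all measured genes. The same shares stand beside each of the other lists of this paragraph. Gdf15, a stress-induced cytokine, was higher at 15.7, 49.0 and 21.9 CPM against 9.72, 18.2 and 10.1, and Bambi and Cdkn2c were lower. Cdkn1a was at 82.3, 192 and 79.7 CPM against 60.2, 161 and 69.2 (0.45, 0.26 and 0.20). Cdkn2b (p15) was at -0.18, 0.02 and -0.27. Cdkn2a (p16) gave 2, 2 and 7 UMIs in the selected cells, too few to compare. In the cell cycle list Ccnd1, cyclin D1, was higher (0.68, 0.71 and 0.49) and 5 of 6 were in neither direction. Of 47 nuclear respiratory chain genes, 2 were higher (Atp5g1 and Uqcrq) and 45 in neither direction, and none of the 13 mitochondrially encoded genes passed. In the interferon and MHC list, Ifi27 and Tap2 were higher, Irf1 was lower and 16 of 19 were in neither direction. The antioxidant and metal list had 1 of 23 higher (Srxn1) and none lower. Gpx3 on that list was at 10.3, 178 and 20.4 CPM against 11.1, 266 and 74.7, and Mt1 at 1288, 848 and 835 CPM against 1627, 610 and 817, so neither passed the same way in all 3 libraries. In addition, none of 7 nuclear-retained RNAs (Malat1 at -0.27, -0.20 and -0.30) or 18 chromatin and splicing genes passed.

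Delta cell markers summed to 82.7, 23.9 and 36.7 CPM in the selected cells against 112, 50.6 and 105 in the low cells, and endothelial markers to 5.16, 6.47 and 1.48 CPM against 11.9, 49.7 and 8.12. Pancreatic polypeptide cell markers summed to 478, 209 and 214 CPM in the selected cells against 678, 770 and 647 in the low cells, with Pyy, named here after its values were seen, at 256, 61.5 and 69.9 CPM against 450, 494 and 420. The delta cell gene Rbp4, on the immature list, had log2 ratios of -0.51, -1.83 and -1.66. Ductal markers summed to 2184, 1272 and 1471 CPM against 1266, 1309 and 840, of which Spp1 gave 1606, 592 and 872 CPM against 634, 624 and 237, while Cftr was at 0 in the selected cells. The part of RNA from other cells in the differences was not tested. Without beta cells holding at least 1000 CPM of acinar markers, 462 genes were higher and 226 lower.

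The genes whose levels were most like each selecting gene were taken over 30 sums, 10 bins in each of the 3 libraries ordered without that gene. For Igf1r they were Rpn2 (Pearson r = 0.97), Pkm, Gapdh, Lman1 and Aldoa. For Pdyn they were Ppib (0.92), Hsp90b1, Atp5g1, Dad1 and Wsb2, and for Ttyh1 they were Vgf (0.93), Rap1b, Uqcrq, Pgk1 and Psph. The sums share libraries and their depth, so r is a description.

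The selected cells were last compared between libraries, each pair resting on 1 library a side, and the 3 comparisons share libraries. A gene was measured here with at least 100 UMIs in the selected cells of both libraries together and 20 CPM in the higher one, so some named genes rest on few UMIs in 1 library. The same genes were then counted in the low cells. The selected cells summed to 5.23e+06, 2.47e+06 and 3.38e+06 UMIs in control, S961 and recovered, against 9.87e+06, 9.01e+06 and 1.01e+07 in the low cells. Fewer UMIs give a wider counting error, and more genes can pass a fixed threshold by it. The shares of the 2 groups of cells in the 3 comparisons are thus not on equal terms. In S961 over control, 787 of 5349 measured genes (14.7%) were higher in the selected cells by a log2 ratio of at least 0.32 and 668 (12.5%) lower, against 7.16% and 17.2% in the low cells. Gpx3, an extracellular glutathione peroxidase, was at 178 CPM in S961 and 10.3 in control, a log2 ratio of 4.11 (3.70 to 4.54), beside 4.58 in the low cells. Star, the mitochondrial cholesterol importer, was at 60.7 against 10.1 CPM, a log2 ratio of 2.58 (2.12 to 3.06), beside 0.87 (0.30 to 1.46) in the low cells. Fbp2, a fructose-bisphosphatase, Gdf15 and Gc were the next highest, at 2.01, 1.64 and 1.31. Mafa was at 126 against 375 CPM, a log2 ratio of -1.57, beside -1.69 in the low cells, and Slc2a2 was at 24.3 against 65.7 CPM (-1.44, beside -1.25). Crybb3 (-1.20) and B2m (-1.47) were also low in S961. Bst2, an interferon-induced membrane protein, was at 10.5 against 35.7 CPM in the selected cells, -1.76 (-2.42 to -1.17), and at 22.7 against 15.7 CPM in the low cells, 0.53 (0.23 to 0.85). Cdkn1a was at 192 against 82.3 CPM, 1.22 beside 1.42.

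In recovered over S961, 798 of 5417 genes (14.7%) were higher and 539 (9.95%) lower in the selected cells, against 15.6% and 5.02% in the low cells. Mafa (1.59), Slc2a2 (1.66), Lpl, lipoprotein lipase (1.62), Nptx2 (1.77) and Fam151a (1.43) were the highest by their interval bound, beside 1.81, 1.46, 1.63, 1.98 and 1.07 in the low cells. Gpx3 was at 20.4 against 178 CPM, -3.12 (-3.51 to -2.75), beside -1.83 (-1.95 to -1.71) in the low cells. Aldh1a3 was at 7.40 against 49.0 CPM (25 and 121 UMIs), -2.73 beside -1.84, and Fbp2 (-1.83), Fabp5 (-1.87) and Gc (-1.52) were also lower.

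In recovered over control, 512 of 5322 genes (9.62%) were higher and 197 (3.7%) lower, against 4.53% and 3.74% in the low cells. Star was at 37.6 against 10.1 CPM, 1.89 (1.42 to 2.38), beside 0.57 (-0.01 to 1.17) in the low cells. Nupr1, a stress-response regulator, was at 1593 against 910 CPM, 0.81 beside 0.47, and Lpl at 289 against 164 CPM, 0.82 (0.69 to 0.96) beside 0.18 (0.06 to 0.30). Nptx2 (1.67) and Zc3h10 (1.11) were the other 2. Aldh1a3 was at 7.40 against 24.6 CPM (-1.73), C2cd4a at 32.6 against 78.7 (-1.27), Crybb3 at 255 against 541 (-1.09), Hspa1a at 5.92 against 20.4 (-1.79) and Jun at 35.2 against 69.7 (-0.98). Lists were counted between libraries over members with at least 100 UMIs in the pair, while the shares of all genes also asked for 20 CPM in the selected cells. The beta-cell identity list had 9 of 29 lower and 1 higher in selected S961 cells over control, against 12.5% lower and 14.7% higher among all genes. In the low cells it had 12 and 3 of 32, against 17.2% and 7.16%. In recovered over control this list had 4 of 30 higher and 1 lower in the selected cells, against 9.62% and 3.7% of all genes. In the low cells it had 4 and 1 of 32, against 4.53% and 3.74%. The unfolded protein response list had 14 of 31 members lower and 2 higher in selected S961 cells over control, against 12.5% and 14.7% of all genes. In the low cells it had 15 and 2 of 32, against 17.2% and 7.16%.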

How the data were processed

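The deposited table holds raw UMI counts per gene and barcode for 3 libraries, not normalized by the authors; Cell Ranger and the mm10 genome are named per the submitters' processing notes, with no version. It has 31053 genes and 24590 barcodes, and the barcode suffix gave the library. The 934 cells, the gene lists and the comparisons were chosen with earlier results of these data known. UMIs were summed per library and group of cells and scaled to counts per 1000000 UMIs (CPM); log2 ratios carry exact conditional binomial intervals, shares carry Clopper-Pearson intervals and levels carry exact Poisson intervals, all at 95% and for counting error only. A count of 0 was set to 3 UMIs in ratios. Within libraries, a gene was measured with at least 100 UMIs in each library and called at a log2 ratio of 0.32 or more the same way in all 3. Between libraries, 100 UMIs in the selected cells of the pair together and 20 CPM in the higher library were asked for. Named genes were the 15 highest and 15 lowest by smallest log2 ratio, with at least 20 CPM in the higher group, leaving out the selecting genes, ribosomal, mitochondrial and unnamed genes and markers of other cells; a set of islet genes fixed by name, the 2 highest and 2 lowest of each list, the 5 highest and 5 lowest between libraries and the 5 most alike were added. Other genes named from the lists, and the motifs, were picked after their values were seen. Doublets were not called; without cells over 3 times the median UMIs the counts were 472 higher and 230 lower. Alpha and delta cells also had under 15% insulin UMIs and at least 2000 UMIs. Scripts were tested on simulated data. Software was Python 3.11.15, numpy 2.4.6, scipy 1.17.1, pandas 2.3.3 and matplotlib 3.10.9.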

Additional observations from a re-analysis of the deposited data

Results flagged for a closer look

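For Mt1, a metallothionein, the selected cells differed from the low cells in opposite directions in separate libraries, with a log2 ratio of -0.34 (-0.38 to -0.30) in control and 0.47 (0.40 to 0.55) in S961. For Bst2 the log2 ratio was 1.19 in control and -1.11 in S961, and 1.01 in recovered. The difference between libraries was not tested, since each condition is 1 library.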

How the results depend on the processing

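The 30 named genes kept their sign and a mean log2 ratio of at least 0.32 in size in the 16 alternative settings. They were chosen as the extremes of these counts, and most settings reuse the same cells and UMIs, so this is not separate support. Their sizes moved: Trib3 went from a mean of 1.18 to 0.47 without Igf1r in the score. Igfbp7 moved by more than its SD over the libraries in 12 of the 16 settings, and Msln and Akr1c19 in 0. Against 471 higher and 230 lower genes, the higher count was 285 with scores from thinned cells, 211 without Igf1r in the score, and 240 against all other beta cells. Choosing and measuring on separate UMIs gave 307 and 126, a CPM total without insulin and mitochondrial UMIs 280 and 399, and a 1.5-fold threshold 120 and 81; a minimum of 10 UMIs gave 594 lower. Asking for agreement of only 2 libraries gave 640 to 832 higher and 325 to 426 lower, with 832 and 383 without control and 426 lower without S961. The share of selected cells was 14.998%, 15.03% and 15.04% when chosen within libraries, and 7.57%, 1.97% and 3.74% in control, S961 and recovered at the top 5%; without Pdyn in the score it was 18.1% in control and 14.8% in recovered. Between Pdyn-led and Igf1r-led cells, 7 higher and 56 lower genes became 3 and 21 on separate UMIs, 0 and 10 at 1.5-fold, and 16 to 25 and 115 to 151 with 1 library left out (25 and 151 without control, 21 and 151 without S961, 16 and 115 without recovered). The cause was not tested, except that a stricter or looser rule and fewer libraries change the counts by construction. No paired analysis was possible because each condition is 1 library, so replicate numbers pair no samples; selected and low cells were compared within their own library throughout. Depth limits genes such as Cdkn2a, Irs1 and Msln.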

Other observations

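Among genes outside the naming rule, chosen after their values were seen, the unnamed long noncoding RNA Gm27168 (chromosome 8, 86920477 to 86921147, minus strand, GRCm38) was at 33.2 CPM in selected control cells, 27.5 in S961 and 29.0 in recovered, against 4.66, 4.33 and 3.27 CPM in the low cells. Fbp2, a fructose-bisphosphatase better known from muscle, was at 19.1, 76.9 and 21.6 CPM against 3.85, 17.9 and 4.55 CPM, and so was higher in the selected cells of each library and higher in S961 in both groups of cells.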
